A study of Mus musculus with 6 samples.

Results

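The p53 target genes other than Cdkn1a were followed here at the level of chromatin accessibility. The list held 34 genes, and the regions followed were the ATAC-seq peaks whose nearest transcription start site, within 100000 bp, belonged to one of these genes. This gave 403 of 175929 peaks, with at least 1 peak for each of the 34 genes and between 1 (Ddb2) and 43 (Btg2) peaks per gene. ATAC-seq marks open DNA by the insertion of sequencing adapters through a transposase. It was performed on sorted Lin- c-Kit+ GFP+ splenocytes from recipients of AE9a leukemia cells, a mouse model of acute myeloid leukemia driven by the AML1-ETO9a fusion. All cells of both groups were Usp18+/f, carried a tamoxifen-inducible Cre that is expressed in all tissues, and were transduced with a retrovirus for AE9a and GFP before growth in irradiated recipients. Sick recipients received oil (Usp18+/f, replicates 1, 2 and 4) or tamoxifen (Usp18+/Δ, replicates 1, 3 and 4), and cells were sorted 3 days after the first injection. Tamoxifen itself, the activity of Cre and the loss of the floxed Usp18 allele came together in the tamoxifen group and cannot be told apart. The libraries are described as biological replicates shared with RNA-seq, and the methods give 3 mice per group for the sorted cells. No label ties a library to a mouse. The p-values measure the spread between libraries, which is that between recipient mice if each library came from 1 mouse. By the methods, the mice of the study were young adults of both sexes, with no age given per group.

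The transcription factor p53, encoded by Trp53 in the mouse, is stabilised by DNA damage and other stresses. It binds DNA as a tetramer at an element made of a pair of 10-base repeats and activates genes that halt the cell cycle, repair DNA or start apoptosis. Among its targets are its own inhibitors, of which Mdm2 marks p53 for degradation and Mdm4 blocks its activity, so that the response limits itself.

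Total tags per library ranged from 57.4 to 74.7 M (M for 1000000), of which 17.5 to 21.1 M lay in peaks, and the member peaks took 0.289 to 0.298% of the latter. Tamoxifen library 4 stood apart. Over all peaks its log2 values differed from those of the oil libraries by 0.367 to 0.392 (root mean square) and from tamoxifen libraries 1 and 3 by 0.442 and 0.447, whereas the latter differed from each other by 0.355 and from oil by 0.458 to 0.516. Results are therefore also given without it. Of 15 peaks near Usp18, 0 changed by DESeq2 (0 at an unadjusted p under 0.05), and the sources used here do not say which of them the deletion removes, so that they do not check the labels. All 7 marker genes of the sorted cells (Kit, Cd34, Mpo, Spi1, Runx1, Gfi1 and Cebpa) had a peak at the start site, as did 6 of 6 erythroid markers, while Cd3d, Cd4, Cd8a, Ms4a1, Pax5, Lyz2, S100a8, S100a9 and Ncr1 had none. Summed tags of the marker lists also moved with the groups, except for the B cell list, where the ranges overlapped. The sorted-cell list held 27148 to 28246 tags in oil and 28951 to 32181 in tamoxifen (8 of 328 peaks higher and 1 lower), the T cell list 1054 to 1222 and 1248 to 1394 (1 of 23 higher), the NK list 2933 to 3043 and 3445 to 3548 (1 of 22 higher), the mature myeloid list 1604 to 1673 and 1715 to 1896 (0 of 28 called, 1 at an unadjusted p under 0.05), the erythroid list 10620 to 10995 and 9793 to 10168 (2 of 78 higher and 2 lower), and the B cell list 2032 to 2106 and 2050 to 2262 (0 of 37 called, 3 at an unadjusted p under 0.05). Within the sorted-cell list, the Cd34 start-site peak went from a mean of 94.6 tags in oil to 270 in tamoxifen (log2 change 1.50 ± 0.19 (SE), DESeq2 adjusted p = 8.32e-12). The start-site peaks of Kit, Mpo, Spi1, Runx1, Gfi1 and Cebpa were not called, with log2 changes of -0.040 (Spi1) to 0.39 (Mpo). The part of the marker lists and of Cd34 in the results below was not tested. In such bulk samples, fewer open cells and lower accessibility per cell cannot be told apart.

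The sequences below show the p53 elements found at member peaks, since such elements are known as the DNA that p53 binds. A 300-base window on each peak's centre was searched in GRCm38 (mm10) for the p53 consensus, a pair of 10-base repeats with no spacer, with both repeats keeping the C and G of the core. The consensus is its own reverse complement, so that 1 search covers both strands. With at most 2 mismatches of 20, an element was present in the windows of 4 of 403 member peaks (0.993%) and 642 of 175929 peaks (0.365%), and with at most 3 mismatches in 12 (2.98%) and 2925 (1.66%). The window can reach past a short peak. Of the 4 member peaks with at most 2 mismatches, 2 belonged to Mdm4 and 1 each to Eda2r and Gdf15. The window of the Mdm4 peak at 5115 bp held 2 such runs with 1 mismatch each, which share 10 bases, and the others held 1. The windows of the Mdm4 and Eda2r peaks that changed are given whole, on the plus strand, with the runs of at most 2 mismatches in capitals. The other lines give the 20 bases of the element alone, for the remaining peaks with at most 2 mismatches and for Mdm2, Bbc3 and Trp53, with 3 mismatches each.
Mdm4 intron 1, 5115 bp from the start site, 1 mismatch in each run, chr1:133020152-133020451: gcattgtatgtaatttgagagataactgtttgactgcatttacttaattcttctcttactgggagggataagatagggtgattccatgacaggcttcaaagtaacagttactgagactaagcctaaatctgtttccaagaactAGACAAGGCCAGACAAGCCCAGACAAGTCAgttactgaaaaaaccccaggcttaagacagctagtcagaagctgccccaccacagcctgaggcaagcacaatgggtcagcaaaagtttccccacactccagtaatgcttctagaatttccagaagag
Eda2r intron 1, 586 bp from the start site, 2 mismatches, chrX:97376474-97376773: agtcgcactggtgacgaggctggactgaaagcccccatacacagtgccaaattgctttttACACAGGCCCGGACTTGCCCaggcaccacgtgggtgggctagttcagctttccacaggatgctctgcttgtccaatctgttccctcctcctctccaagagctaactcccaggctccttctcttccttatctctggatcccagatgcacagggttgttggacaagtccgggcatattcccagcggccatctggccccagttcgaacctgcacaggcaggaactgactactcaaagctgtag
Mdm4, 5860 bp from the start site, 1 mismatch, chr1:133019441-133019460: AGACAGGTTTGGACATGTTC
Gdf15, 104 bp from the start site, 1 mismatch, chr8:70631966-70631985: AGGCAAGTTCAGGCAAGTCA
Mdm2, 591 bp from the start site, 3 mismatches, chr10:117710105-117710124: GGACGTGTCCCAACTTGACC
Bbc3, start-site peak, 3 mismatches, chr7:16309486-16309505: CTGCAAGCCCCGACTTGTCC
Trp53, start-site peak, 3 mismatches, chr11:69580284-69580303: GGACTTGCCCTTACTTGTTA

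The first question was whether peaks of p53 target genes opened or closed upon tamoxifen. Accessibility rose at 6 of 403 member peaks, which belonged to Mdm4, Eda2r (2 peaks), Tnfrsf10b, Rap2b and Perp (DESeq2, adjusted p under 0.05 over all 175929 peaks). Across all peaks the same test called 1.39% (2154 higher and 294 lower), so that the 1.49% called among the members was near the background. Member peaks called lower numbered 0 by DESeq2, against 0.167% of all peaks called lower and 1.22% called higher, with 17 lower at an unadjusted p under 0.05 and 3 called lower by each of edgeR and limma voom. With a fold over 2 as well, 3 member peaks were called, against 0.654% of all peaks. At an unadjusted p under 0.05 there were 33 member peaks (8.19%), of which 16 were higher and 17 lower, compared with 9.02% of all peaks. The median log2 change of the member peaks was -0.013 (quartiles -0.21 and 0.16), compared with -0.0013 over all peaks (quartiles -0.18 and 0.19). The 3 tamoxifen libraries all lay above the 3 oil libraries at 41 member peaks (10.2%, with 11.9% of all peaks) and all below at 59 (14.6%, with 10.0% of all peaks). Without tamoxifen library 4, 22 member peaks were called, 11 higher and 11 lower (5.46%, with 3.71% of all peaks), and 5 of them were among the 6 above. edgeR called 13 member peaks (10 higher) with 2.92% of all peaks, and limma voom 11 (8 higher) with 2.14% of all peaks.

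**Figure D1:**
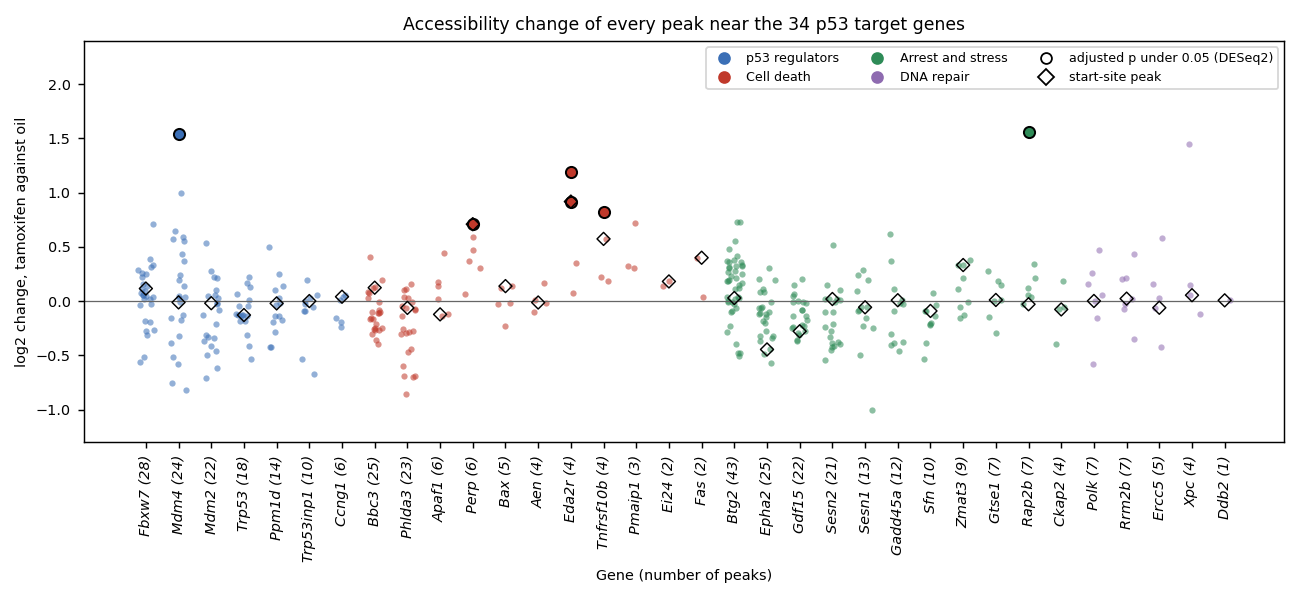
Each point is 1 of the 403 member peaks, with genes on the x axis grouped by role (number of peaks in brackets) and the log2 change of tamoxifen against oil on the y axis. Outlined points had an adjusted p under 0.05 (DESeq2) and diamonds mark the peak nearest the start site. The 6 outlined peaks lie between 0.71 and 1.56, and most other peaks spread on both sides of 0.

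Among the members, the peaks lay mainly away from start sites, with 120 within 3000 bp of one and 283 farther away. They had been detected in both groups' peak lists at 298 sites, in that of oil alone at 65 and in that of tamoxifen alone at 40. The peaks measured 201 to 906 bp (median 247 bp) and held 16.9 to 1077 normalised tags on average. Of the member peaks, 177 lay within the body of the member gene, 46 within the body of another protein-coding gene and 180 in neither, so that the assignment to a member rests on the nearest start site. By role, 4 of 84 peaks of cell death genes were higher (4.76%), 1 of 122 peaks of p53 regulators (0.820%), 1 of 173 peaks of arrest and stress genes (0.578%) and 0 of 24 peaks of repair genes, compared with 1.22% of all peaks called higher. Among the repair peaks DESeq2 found 1 at an unadjusted p under 0.05 and edgeR and limma voom called 1 each. DESeq2 called no member peak lower in any role. The median log2 changes of the 4 roles were -0.0044, -0.021, -0.028 and 0.043, in the same order.

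The regulators of p53 differed from one another within a single gene. The rise with the smallest p of all member peaks was in intron 1 of Mdm4, which encodes an inhibitor of p53 (chr1:133020123-133020480). The peak held 24.3, 39.5 and 40.3 normalised tags in oil libraries 1, 2 and 4 and 96.7, 89.7 and 117 in tamoxifen libraries 1, 3 and 4. All 3 tamoxifen libraries lay above all oil libraries, and the mean went from 34.7 ± 9.04 (SD, n = 3) to 101 ± 14.4 (SD, n = 3) (log2 change 1.54 ± 0.26 (SE), DESeq2 adjusted p = 2.02e-06). This peak was called with any 1 library left out (adjusted p 9.08e-05 to 0.00159). It holds the overlapping runs printed above, the first of them centred 3 bases from the peak's centre. Its neighbours at 4682 and 5860 bp had log2 changes of 0.99 ± 0.42 (SE) and 0.55 ± 0.30 (SE) and did not pass the test (adjusted p = 0.36 and 0.62, DESeq2), and the window of the latter holds an element with 1 mismatch as well, which begins just outside the peak. By contrast, the peak at the Mdm4 start site held 661, 664 and 623 tags in oil and 647, 666 and 621 in tamoxifen, with overlapping groups and a log2 change of -0.011 (95% interval -0.18 to 0.16). Another intronic Mdm4 peak, 2401 bp from an alternative start site (chr1:133028074-133028299), held 111, 140.4 and 127 tags in oil and 70.6, 71.3 and 112 in tamoxifen and did not pass the test (log2 change -0.58 ± 0.21 (SE), DESeq2 adjusted p = 0.20). Here tamoxifen library 4 lay within the oil range, and without that library the peak was called lower (log2 change -0.83, adjusted p = 0.0075).

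At the other regulators no peak was called. Mdm2, which encodes the ubiquitin ligase that degrades p53, had 22 peaks with log2 changes of -0.71 to 0.53. Its start-site peak held 708, 696 and 651 tags in oil and 712, 679 and 638 in tamoxifen, with a log2 change of -0.018 (95% interval -0.19 to 0.15). The peak in its first intron, where a p53-responsive promoter is known, held 187, 189 and 189 tags in oil and 170.1, 185 and 203 in tamoxifen with a log2 change of -0.022 (95% interval -0.30 to 0.26), and it contains the Mdm2 element printed above. The named lower peak of Mdm2 lay 33117 bp away within Cpm, a carboxypeptidase gene, and held 138, 143 and 124 tags in oil and 88.9, 86.9 and 118 in tamoxifen (log2 change -0.46 ± 0.19 (SE), DESeq2 adjusted p = 0.31). Trp53 itself had 18 peaks, and its start-site peak held 669.6, 663 and 638 tags in oil and 596, 591 and 616 in tamoxifen. The tamoxifen values lay below the oil values there, but the difference did not pass the test (log2 change -0.13 ± 0.085 (SE), DESeq2 adjusted p = 0.76). The start-site peaks of Ppm1d, a phosphatase that switches p53 off, and Ccng1, which encodes cyclin G1, showed log2 changes of -0.02 (95% interval -0.20 to 0.16) and 0.041 (95% interval -0.13 to 0.21). Fbxw7, a ubiquitin ligase subunit, had 28 peaks, and the highest by p lay at -66165 bp, upstream of the start site and within the predicted gene Gm37240 (chr3:84749302-84749523). It held 47.4, 47.8 and 61.4 tags in oil and 77.3, 100.3 and 80.1 in tamoxifen, with no overlap, and missed the threshold in DESeq2 (log2 change 0.71 ± 0.24 (SE), DESeq2 adjusted p = 0.12) while edgeR and limma voom called it (adjusted p = 0.035 and 0.049). The 10 peaks of Trp53inp1, which encodes a stress-induced p53 cofactor, had log2 changes of -0.67 to 0.19.

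Among cell death genes, the rises were at receptors and at Perp. Eda2r, which encodes a receptor of the TNF receptor family for ectodysplasin A2, rose at its promoter and in its first intron. The promoter peak (chrX:97377122-97377387) held 80.5, 86.3 and 109 normalised tags in oil libraries 1, 2 and 4 and 194, 162 and 166 in tamoxifen libraries 1, 3 and 4. The groups did not overlap, and the mean went from 91.9 ± 14.97 (SD, n = 3) to 174 ± 17.5 (SD, n = 3) (log2 change 0.92 ± 0.18 (SE), DESeq2 adjusted p = 1.44e-04), with the call kept whichever library was left out (adjusted p 0.000196 to 0.0199). The intron 1 peak (chrX:97376463-97376784), the site of the Eda2r element printed above, held 17.1, 20.97 and 28.7 tags in oil and 50.3, 49.6 and 56.8 in tamoxifen. Its mean went from 22.2 ± 5.89 (SD, n = 3) to 52.2 ± 3.99 (SD, n = 3) (log2 change 1.19 ± 0.32 (SE), DESeq2 adjusted p = 0.0228). The peak was in the list of tamoxifen alone, so that it entered through the group in which it is higher. This selection favours a rise, and the p-value does not allow for it. Its call was lost with each of the 6 libraries left out in turn (adjusted p 0.0549 to 0.31), while the log2 change stayed between 1.05 and 1.41. The other Eda2r peaks, upstream at -54535 and -54259 bp, were not called. Eda2r is on chromosome X, where the median log2 change of all 3146 peaks was -0.0044.

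Tnfrsf10b, which encodes the mouse receptor for the death ligand TRAIL, rose at a peak in intron 3 (chr14:69774834-69775130). It held 129, 90.2 and 99.5 normalised tags in oil libraries 1, 2 and 4 and 170.1, 222 and 169.9 in tamoxifen libraries 1, 3 and 4. The groups did not overlap, and the mean went from 106 ± 20.3 (SD, n = 3) to 187 ± 29.8 (SD, n = 3) (log2 change 0.82 ± 0.18 (SE), DESeq2 adjusted p = 0.00142). Without oil library 2, oil library 4 or tamoxifen library 3 the adjusted p was 0.085, 0.062 and 0.14. The start-site region of Tnfrsf10b was weakly open, with 18.2, 29.3 and 23.3 tags in oil and 39.1, 27.3 and 38.6 in tamoxifen, and its log2 change of 0.57 (95% interval -0.13 to 1.28) did not pass the test. That start-site peak was in the tamoxifen list alone, which favours a rise. Perp, which encodes a membrane protein of apoptosis and cell adhesion, rose at its promoter (chr10:18844862-18845218). The peak held 101, 75.1 and 74.8 normalised tags in oil libraries 1, 2 and 4 and 135, 151 and 124 in tamoxifen libraries 1, 3 and 4, again without overlap, and the mean went from 83.8 ± 15.3 (SD, n = 3) to 137 ± 13.6 (SD, n = 3) (log2 change 0.71 ± 0.19 (SE), DESeq2 adjusted p = 0.0251). This call was lost without oil library 2 or 4 or tamoxifen library 1 or 3 (adjusted p 0.16 to 0.43). The other 5 Perp peaks had log2 changes of 0.069 to 0.59, and none was called.

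The best known death genes of the list showed no called peak. The promoter of Bbc3, which encodes the BH3-only protein PUMA, held 652, 652 and 594 tags in oil and 708, 708 and 653 in tamoxifen. Tamoxifen library 4 exceeded the highest oil library by less than 1 tag there, and the log2 change was 0.12 (95% interval -0.047 to 0.30) with an adjusted p of 0.78 (DESeq2). Bax, which encodes a pore-forming protein of mitochondria, held 411, 414 and 326 tags in oil and 431, 456 and 380.4 in tamoxifen at its start site, with overlapping groups and a log2 change of 0.14 (95% interval -0.093 to 0.37). Fas, a death receptor, held 58.5, 45.3 and 49.7 tags in oil and 79.3, 69.1 and 53.5 in tamoxifen at its start site, with a log2 change of 0.40 (95% interval -0.10 to 0.90), so that a moderate rise is within the interval. Pmaip1, which encodes the BH3-only protein NOXA, had 3 peaks, all beyond 3000 bp from the start site, with log2 changes of 0.31 to 0.72. The start-site peaks of Apaf1 (apoptosome), Aen (a nuclease of apoptosis) and Ei24 had log2 changes of -0.12, -0.012 and 0.18, none past the test.

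Phlda3, which encodes an inhibitor of Akt signalling, had the lowest p among lower peaks. Its peaks named for this lay 13344, 13594 and 14947 bp from the Phlda3 start site, in or within 5 bp of Tnni1, a troponin gene. The peak at 13594 bp (chr1:135779574-135779785) held 129, 135 and 134 normalised tags in oil libraries 1, 2 and 4 and 71.5, 65.7 and 108 in tamoxifen libraries 1, 3 and 4. It fell short of the threshold (log2 change -0.69 ± 0.21 (SE), DESeq2 adjusted p = 0.0548), as did the peaks at 14947 bp (122, 127 and 107 tags in oil and 79.7, 54.6 and 85.7 in tamoxifen; adjusted p = 0.0632, DESeq2) and 13344 bp (192, 189.7 and 197 tags in oil and 134, 114 and 169 in tamoxifen; adjusted p = 0.17, DESeq2). The groups did not overlap at these 3 peaks, and tamoxifen library 4 lay between the other tamoxifen libraries and oil. Without it, 5 of the 23 Phlda3 peaks were called lower, with 3.71% of all peaks called in that fit. With all libraries, edgeR and limma voom called the peaks at 13594 and 14947 bp lower. A further Phlda3 peak, at 14025 bp, was called lower by limma voom (log2 change -0.92, adjusted p = 0.028) but not by edgeR or DESeq2. The Phlda3 start site itself held 430.2, 419.8 and 380.3 tags in oil and 377, 385 and 414 in tamoxifen, with overlapping groups and a log2 change of -0.062 (95% interval -0.27 to 0.15).

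**Figure D2:**
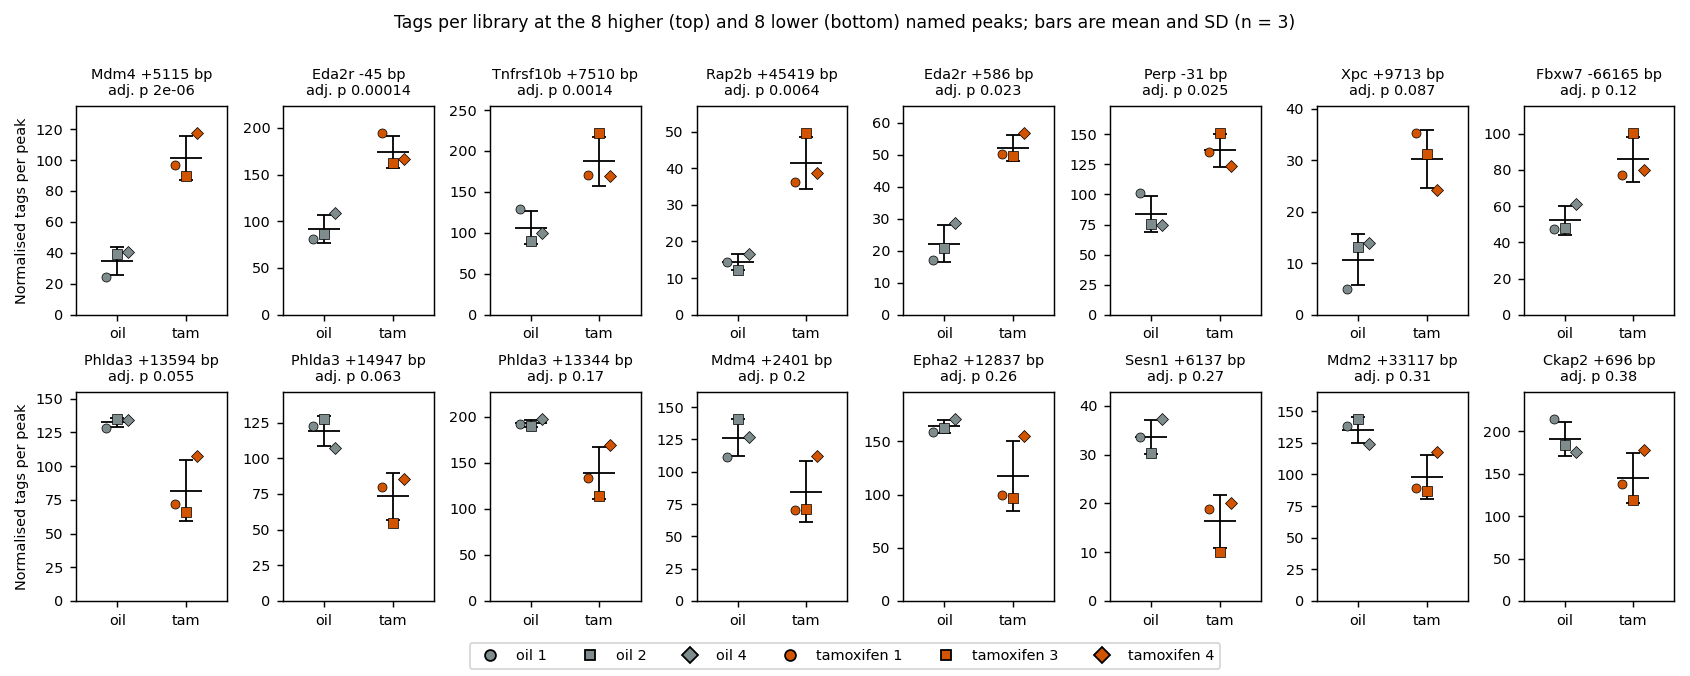
Normalised tags (y axis, from 0) in each oil (grey) and tamoxifen (orange) library at the 8 member peaks with the smallest p for a rise (top) and the 8 for a fall (bottom), with distance to the start site and DESeq2 adjusted p above each panel and bars are mean and SD (n = 3). The groups are separate at all 8 higher peaks and at 6 of the 8 lower peaks, and tamoxifen library 4 (diamond) is the highest of the tamoxifen libraries at all 8 lower peaks.

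For arrest and stress genes, the only called peak was an intergenic one assigned to Rap2b, a small GTPase gene, 45419 bp from its start site (chr3:61409816-61410037). It held 14.3, 12.2 and 16.6 normalised tags in oil libraries 1, 2 and 4 and 36.2, 49.6 and 38.6 in tamoxifen libraries 1, 3 and 4. The groups did not overlap, and the mean went from 14.4 ± 2.19 (SD, n = 3) to 41.5 ± 7.11 (SD, n = 3) (log2 change 1.56 ± 0.38 (SE), DESeq2 adjusted p = 0.00638). The peak lay 43975 bp from the next protein-coding gene other than Rap2b. It was in the tamoxifen list alone, so that it entered through the group in which it is higher. This selection favours a rise, and the p-value does not allow for it. Without oil library 1 or 4 the adjusted p was 0.075 and 0.051, and without oil library 2 or tamoxifen library 3 DESeq2 gave it none. The Rap2b start site held 644, 638 and 593 tags in oil and 609, 641 and 589 in tamoxifen, with a log2 change of -0.028 (95% interval -0.20 to 0.14). Zmat3, which encodes an RNA-binding p53 target, had at its start site 233, 230.1 and 231 tags in oil and 279, 290.2 and 306 in tamoxifen. These groups did not overlap, and the log2 change of 0.33 (95% interval 0.093 to 0.57) missed the threshold in DESeq2 (adjusted p = 0.21) but passed it in edgeR (adjusted p = 0.034).

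Btg2, an anti-proliferative gene with the most peaks of the list (43), had a median log2 change of 0.18 and no called peak. Its peak at 11847 bp held 242, 295 and 269 tags in oil and 397, 343 and 307 in tamoxifen (log2 change 0.38 ± 0.13 (SE), DESeq2 adjusted p = 0.14) and was called by edgeR (adjusted p = 0.041). Without tamoxifen library 4, 5 of the 43 Btg2 peaks were called higher, with 3.71% of all peaks called in that fit. The Btg2 start site, among the most open of the members, held 1031, 926 and 883 tags in oil and 953, 1056 and 891 in tamoxifen with overlapping groups. Lower values without a call were seen at an intron 3 peak of the receptor kinase gene Epha2 (159, 163 and 171 tags in oil and 100.04, 96.4 and 155 in tamoxifen; log2 change -0.48 ± 0.19 (SE), DESeq2 adjusted p = 0.26), an intron 1 peak of Sesn1, a stress-induced inhibitor of mTORC1 (33.6, 30.2 and 37.2 tags in oil and 18.8, 10.0 and 20.0 in tamoxifen; log2 change -1.01 ± 0.39 (SE), DESeq2 adjusted p = 0.27), and an intron 1 peak of Ckap2, a spindle protein gene (214, 184 and 176 tags in oil and 138, 119 and 178 in tamoxifen; log2 change -0.39 ± 0.17 (SE), DESeq2 adjusted p = 0.38). The Sesn1 peak was in the oil list alone, so that it entered through the group in which it is higher, which favours a fall. At the Epha2 and Ckap2 peaks tamoxifen library 4 was close to or within the oil range, and both were called lower without it. The damage-induced arrest genes Gadd45a and Sfn had start-site log2 changes of 0.0091 ± 0.076 (SE) and -0.09 ± 0.14 (SE). Gdf15, a stress cytokine, held 89.4, 71.7 and 88.7 tags in oil and 80.2, 46.2 and 77.8 in tamoxifen in its first exon, where the element printed above lies, with a log2 change of -0.28 (95% interval -0.75 to 0.19). This Gdf15 peak was in the oil list alone as well.

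DNA repair genes had 24 peaks. Their start-site peaks, at Polk (lesion bypass), Xpc and Ddb2 (damage recognition), Rrm2b (nucleotide supply) and Ercc5 (excision), showed log2 changes of -0.06 to 0.055. A peak in intron 4 of Xpc (chr6:91506055-91506295) held 4.96, 13.2 and 13.9 normalised tags in oil libraries 1, 2 and 4 and 35.3, 31.2 and 24.2 in tamoxifen libraries 1, 3 and 4, with no overlap. It missed the threshold in DESeq2 (log2 change 1.45 ± 0.46 (SE), DESeq2 adjusted p = 0.0867) and passed it in edgeR and limma voom (adjusted p = 0.018 and 0.042). It was in the tamoxifen list alone, which favours a rise, and the low oil tags leave its size imprecise (95% interval 0.55 to 2.35).

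The start-site peaks were then compared across the genes. A peak within 3000 bp was present for 33 of 34 genes (not for Pmaip1), and 2 of them, Eda2r and Perp, were called (DESeq2), with 1.40% of 15888 start-site peaks of all genes called. The 31 others had log2 changes of -0.44 (Epha2) to 0.57 (Tnfrsf10b, from the tamoxifen list alone). For 26 of the 33 genes the 95% interval lay within 0.5 on either side of 0, so that a larger change at those start sites is outside the interval. In mean level per length, the member start-site peaks held 64.7 (Tnfrsf10b) to 4379 (Rrm2b) normalised tags per kb with a median of 2310, while the median over all genes was 1337. Both start sites that rose were among the less open ones, with 500.2 tags per kb at Eda2r and 309 at Perp.

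Tags were also summed over all peaks of a gene, which gives 1 value per gene. Of 34 member genes 4 were called (DESeq2, adjusted p under 0.05 over 19781 genes), 3 higher and 1 lower, with 6.0% of all genes called. Eda2r rose with 219.8, 270.1 and 299 normalised tags in oil libraries 1, 2 and 4 and 411, 389 and 384 in tamoxifen libraries 1, 3 and 4 (log2 change 0.58 ± 0.12 (SE), DESeq2 adjusted p = 2.02e-04). Tnfrsf10b rose with 222, 181 and 201 normalised tags in oil libraries 1, 2 and 4 and 279, 338 and 286 in tamoxifen libraries 1, 3 and 4 (log2 change 0.58 ± 0.14 (SE), DESeq2 adjusted p = 0.0011). Perp rose with 286, 266 and 253 normalised tags in oil libraries 1, 2 and 4 and 379, 385 and 325 in tamoxifen libraries 1, 3 and 4 (log2 change 0.44 ± 0.12 (SE), DESeq2 adjusted p = 0.00884). At each of these 3 genes all tamoxifen libraries lay above all oil libraries. The Eda2r sum includes the intron 1 peak and the Tnfrsf10b sum the start-site peak, both from the tamoxifen list alone. Such entry favours a rise, and the p-values of these sums do not allow for it. Phlda3 fell, with 3783, 3761 and 3829 normalised tags in oil libraries 1, 2 and 4 and 3032, 2836 and 3576 in tamoxifen libraries 1, 3 and 4 (log2 change -0.27 ± 0.072 (SE), DESeq2 adjusted p = 0.0066), but edgeR, limma voom, and the sum over peaks within 10000 bp did not call it.

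Of these 4 genes, Eda2r kept its call with any library left out (adjusted p 0.000191 to 0.0261). Tnfrsf10b lost it without oil library 2 or tamoxifen library 3 (adjusted p = 0.056 and 0.064) and Perp without oil library 2 or 4 or tamoxifen library 1 or 3 (adjusted p 0.097 to 0.14). Phlda3 lost its call without any of the libraries except tamoxifen library 4 (adjusted p 0.068 to 0.16). Without tamoxifen library 4, 7 member genes were called (20.6%, with 14.9% of all genes), 4 higher and 3 lower, the last being Phlda3, Epha2 and Mdm2. Next in order among the genes that were not called came Pmaip1 (log2 change 0.41 ± 0.19 (SE), DESeq2 adjusted p = 0.22) and Ei24 (log2 change 0.15 ± 0.10 (SE), DESeq2 adjusted p = 0.49) on the higher side. On the lower side came Epha2 (log2 change -0.22 ± 0.092 (SE), DESeq2 adjusted p = 0.14), Mdm2 (log2 change -0.14 ± 0.059 (SE), DESeq2 adjusted p = 0.18), Sfn (log2 change -0.15 ± 0.065 (SE), DESeq2 adjusted p = 0.19) and Gdf15 (log2 change -0.096 ± 0.051 (SE), DESeq2 adjusted p = 0.31).

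**Figure D3:**
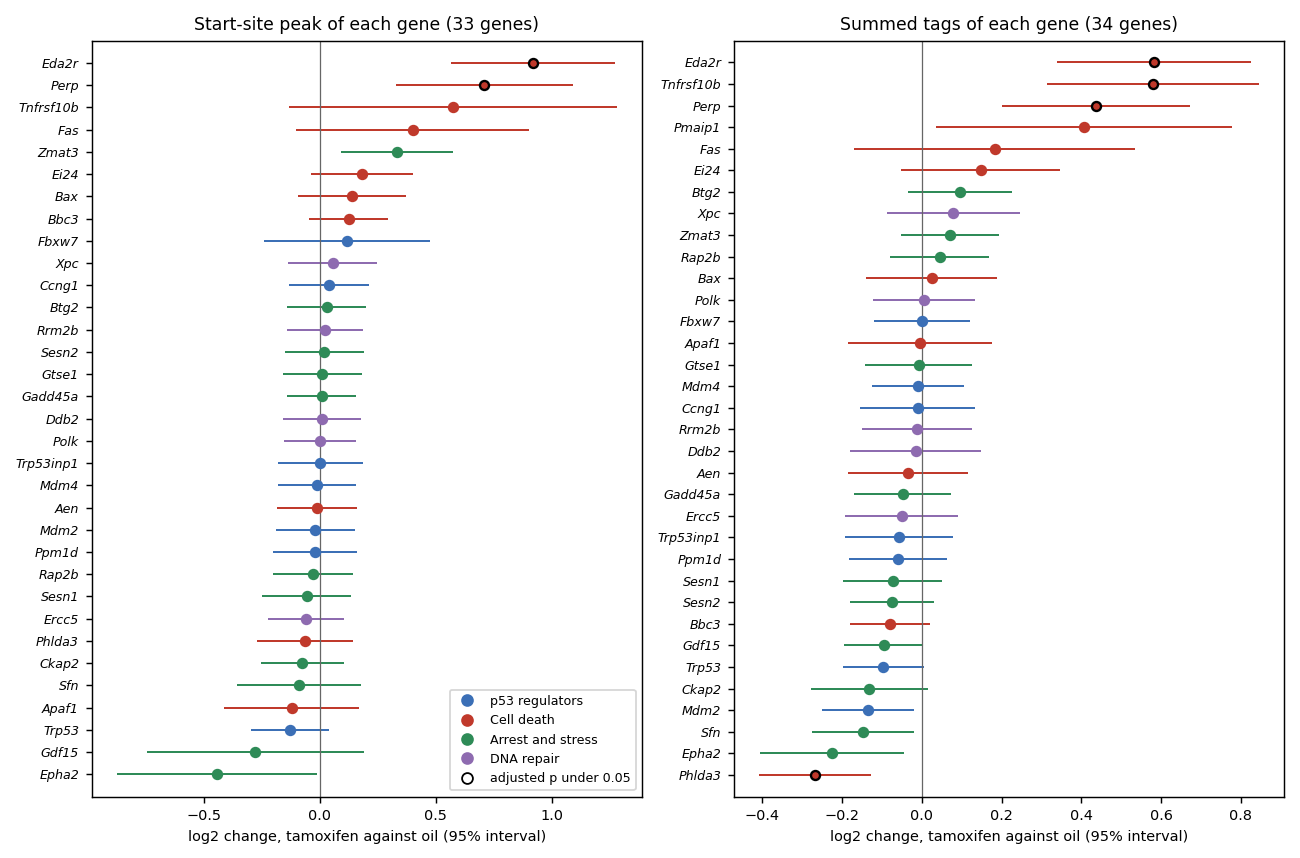
Log2 change of tamoxifen against oil with its 95% interval (x axis) for the start-site peak of 33 genes (left) and the summed tags of 34 genes (right), coloured by role. Outlined points had an adjusted p under 0.05 (DESeq2). Eda2r and Perp stand at the top of the start-site panel at 0.92 and 0.71, and most other genes have short intervals that include 0.

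The position of the peaks that rose differed between genes. At Perp and Eda2r they lay at or near the start site, at Mdm4 and Tnfrsf10b inside the gene with a start-site peak that was not called, and at Rap2b far from the gene. Proximal member peaks were called in 3 of 120 cases (2.50%) and distal ones in 3 of 283 (1.06%), while over all peaks the shares were 0.950% and 1.58%. The difference between these shares was not tested.

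**Figure D4:**
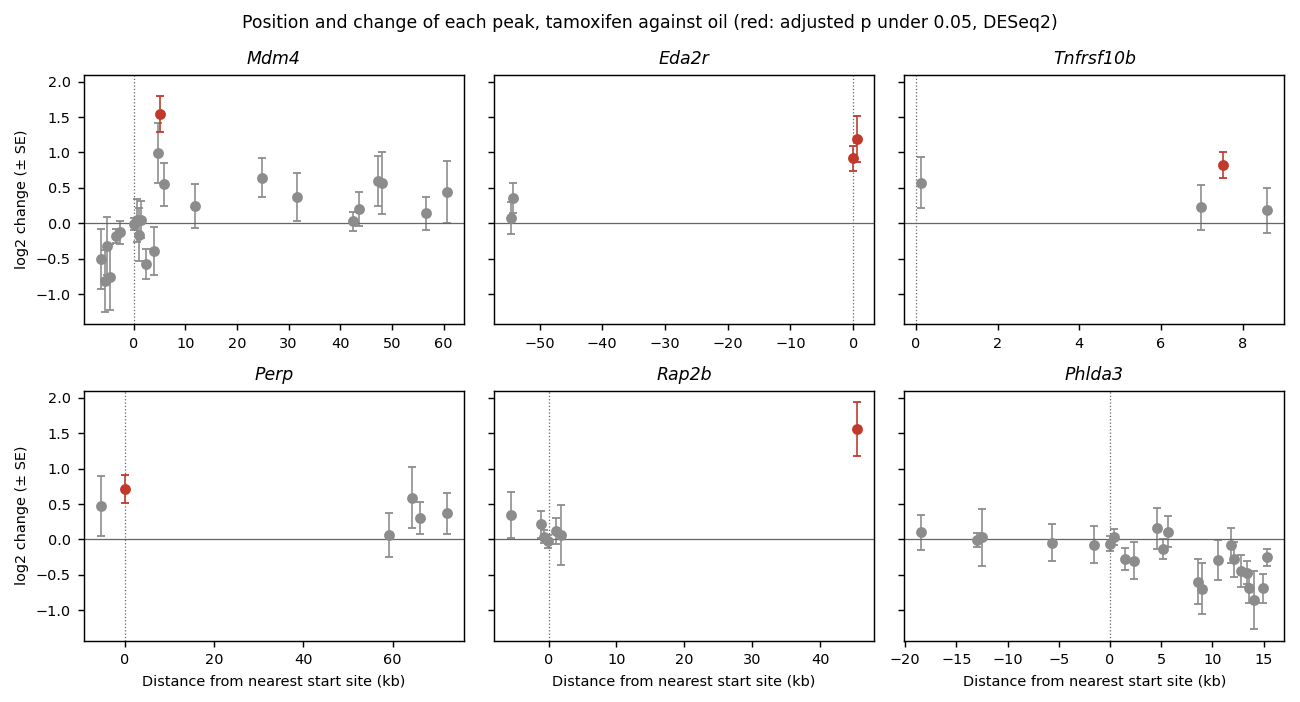
Log2 change ± SE of each peak (y axis) against its distance in kb from the nearest annotated start site of the gene (x axis) for 6 member genes, with called peaks in red. The red peaks lie by the dotted start site for Eda2r (45 bp upstream and 586 bp downstream) and Perp, 5115 bp away for Mdm4, 7510 bp for Tnfrsf10b and 45419 bp for Rap2b, and the lower Phlda3 values gather from 8612 bp onward.

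A p53 element was found both in peaks that rose and in peaks that were not called. Of the 4 member peaks with at most 2 mismatches, those of Mdm4 at 5115 bp and Eda2r at 586 bp rose, while those of Mdm4 at 5860 bp and Gdf15 at 104 bp were not called. None of the 8 further member peaks with 3 mismatches (in Trp53, Mdm2, Bbc3, Aen, Sesn1, Ckap2 and Gtse1) was called by DESeq2, and 1 of them, Ckap2, had an unadjusted p under 0.05. These 8 had log2 changes of -0.39 to 0.17. Over all peaks, 18 of 642 with at most 2 mismatches were called higher and 0 lower (2.80%, with 1.39% of all peaks called), and 18 of the 642 had an unadjusted p under 0.05 with a lower value. The called peaks of Tnfrsf10b, Rap2b, Perp and the Eda2r promoter had no such run within their windows, which says only that these letters are not in those windows.

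Further genes of the p53 pathway, from a list of 25 that includes Cdkn1a, gave 273 peaks at 23 genes. Of these, 9 were higher (3.30%, with 1.22% of all peaks) and 0 lower by DESeq2. At an unadjusted p under 0.05 there were 34 (12.5%, with 9.02% of all peaks), 7 of them lower. edgeR called 15 (5.49%, with 2.92% of all peaks) and limma voom 12 (4.40%, with 2.14% of all peaks), all higher. Cdkn1a, the cell cycle inhibitor gene p21, accounted for 6 of the 9 with its 17 peaks, and the others were 1 peak each of Cdkn2a (log2 change 0.94 ± 0.20 SE), which encodes the p53 activator ARF, of Rchy1 (0.72 ± 0.19 SE), a ubiquitin ligase, and of Plk3 (0.62 ± 0.17 SE), a stress kinase. The Cdkn2a and Rchy1 peaks lay 69857 and 86178 bp from the start site and the Plk3 peak 3496 bp. Their assignment rests on the nearest start site alone. The peak nearest a Cdkn1a start site (chr17:29093625-29093846) was strongly open, with a mean of 521 ± 9.70 (SD, n = 3) tags in oil and 562 ± 16.1 (SD, n = 3) in tamoxifen, and was not called (log2 change 0.11 ± 0.090 (SE), DESeq2 adjusted p = 0.85). A weak peak at an alternative start site upstream (chr17:29090806-29091051), whose window holds a p53 element with 1 mismatch, had a mean of 12.6 ± 2.91 (SD, n = 3) tags in oil and 25.4 ± 4.04 (SD, n = 3) in tamoxifen and was not called either (log2 change 1.03 ± 0.45 (SE), DESeq2 adjusted p = 0.38). Without Cdkn1a, 3 of 256 peaks (1.17%) of this list were called, near the share in the p53 target genes described here. Without tamoxifen library 4 the list had 20 called peaks (7.33%, with 3.71% of all peaks), 16 higher and 4 lower.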

How the data were processed

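Per the labels and the methods, the authors used Bowtie2 for alignment against mm10, HOMER to find the peaks of each group, and a tag count over the merged set. The deposited table holds raw tags, an estimated count in steps of 0.5 because mates count separately, with at most 3 tags per position per the file headers and no normalisation. A peak enters only if it was called in a group, so the limit and the lists shape the low end of the values. Here tags were rounded to whole numbers, and all 175929 peaks were fitted with DESeq2 1.42.0 (R 4.3.3, median-of-ratios size factors, Wald test of tamoxifen against oil, Benjamini-Hochberg adjustment over all peaks). Tags summed per gene (19781 genes) were fitted likewise. Normalised tags are tags divided by the size factor. A peak was called at an adjusted p under 0.05. edgeR 4.0.16 (quasi-likelihood, robust) and limma 3.58.1 (voom) were alternatives, as were other size factors, filters, distances and each library left out. Scripts were tested on simulated data. The 34 genes, the lists and the tests were chosen with earlier results of these data known. Named were, in each direction, the peaks past the threshold and those with the smallest p up to 8, the start-site peaks of 10 well-known genes, and the 5 genes with the smallest adjusted p on summed tags. Zmat3, Btg2 and further start sites were named for their role or after their values were seen. Of the 34 genes, 26 had an entry in RefSeq's GRCm38.p6 promoter table, each with a start site within 100 bp of the deposited one. Gene bodies came from GENCODE M21.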

Additional observations from a re-analysis of the deposited data

How the results depend on the processing

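The 6 member peaks called were 6 under both other size factors, with a minimum of 20 normalised tags, without independent filtering and with distal and proximal peaks fitted apart. edgeR called 13 and limma voom 11, and edgeR called 15 further pathway peaks in place of 9, while an adjusted p under 0.1 gave 14. The median log2 change of member peaks, -0.013, was -0.025 when scaled to tags in peaks and -0.039 within 10000 bp. With 1 library left out, the counts ranged from 2 to 22 for member peaks, 1 to 8 with a fold over 2 as well, 1 to 7 for summed tags, 1 to 2 for start sites and 1 to 20 for further pathway peaks, and the median from -0.032 to -0.014. In the same fits the share called ranged from 0.358 to 3.71% of all peaks and, on summed tags, from 2.32 to 14.9% of all genes. The most calls for peaks and summed tags came without tamoxifen library 4. The cause was not tested. A fit with a replicate block could use only replicates 1 and 4. With this replicate block 0 peaks were called among members, with a fold over 2, at start sites and among further pathway genes, 0 genes were called on summed tags, and the median was -0.040 (member peaks at an unadjusted p under 0.05 numbered 4). The block fit called few features anywhere, with 0.0296% of all peaks and 0.318% of all genes. Deviations of same-numbered libraries from their group means had correlations of -0.044 and 0.051, which show no sign of pairing by number. With only replicates 1 and 4 to compare, these values cannot settle whether such libraries were paired. No named peak changed direction in any fit that gave it an adjusted p. DESeq2 gave no adjusted p to 78 member peaks under the block and to 38 to 94 with 1 library left out, tamoxifen library 4 excepted. The lowest member peak held 16.9 normalised tags on average, so that counting error weighs most on weakly open peaks.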

Other observations

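Peaks named for a member gene but lying more than 100000 bp from its start site were left out above. There were 13, at Rap2b, Apaf1, Ccng1 and Gadd45a, and DESeq2 called 0 of them (1 at an unadjusted p under 0.05). That peak lay 102848 bp from Rap2b and held 40.3, 28.3 and 42.1 normalised tags in oil libraries 1, 2 and 4 and 73.0, 60.2 and 42.8 in tamoxifen libraries 1, 3 and 4 (log2 change 0.68 ± 0.30 SE, DESeq2 adjusted p = 0.39). Within the limit, 46 member peaks lay inside another protein-coding gene, including 9 in Gm37240 (assigned to Fbxw7), 8 in Cpm (Mdm2), 6 in Sae1 (Bbc3) and 4 each in Tnni1 (Phlda3), Armc2 (Sesn1) and Ttc38 (Gtse1). DESeq2 called 0 of these 46, with 6 at an unadjusted p under 0.05 (13.04%, with 9.02% of all peaks), 5 of them lower.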
